A study of Mus musculus with 8 samples.

Results

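The genes described are 9 outputs of the circadian clock, the cell-autonomous oscillator that gives many liver transcripts a daily rhythm. They were taken by symbol from the gene table of the series: the PAR bZIP activators Dbp, Tef and Hlf, the bZIP repressor Nfil3, the nuclear receptor Rora, the DEC repressors Bhlhe40 and Bhlhe41, and the clock-driven genes Usp2 and Wee1. All 9 were found among the 19348 genes of the table, each on a single row, and all 9 passed the filter on low counts that left 12338 tested genes. The libraries came from liver of mice aged 5 weeks. There were 5 libraries of Stab1 knock-out mice (KO5w1 to KO5w5) and 3 of wild-type mice (WT5w1 to WT5w3). The deleted gene, Stab1, codes for a clearance receptor (stabilin-1) carried by the endothelium of liver sinusoids and by certain macrophages. The labels give no strain, sex, allele design, feeding state or hour of collection, and they do not say whether libraries of a genotype came from separate animals.

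In the clock, the activators CLOCK and BMAL1 (the product of Arntl) bind E-boxes and drive the Per, Cry and Rev-erb genes as well as output genes such as Dbp. The PAR bZIP proteins activate genes through D-boxes, and NFIL3 binds the same element and represses. ROR receptors activate, and REV-ERB receptors repress, through ROR elements. In mouse liver Dbp is known for one of the deepest daily rhythms of any transcript, and Nfil3 and Arntl peak in the opposite phase.

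Upstream sequence was at hand for 7 of the 9 genes, from RefSeq on GRCm38.p6, and the 250 bases before each start were searched on both strands for CACGTG (E-box), CACGTT (an E-box variant), TTANGTAA (D-box), TAGGTCA (ROR element) and TGACGTCA (cyclic AMP element). The 3 stretches below hold an E-box or a ROR element beside a gene whose level differed widely between libraries, with the matched letters in capitals and each stretch written 5′ to 3′ on the strand of its gene. The Tef stretch is chr15:81811164-81811413 (plus strand), the Bhlhe41 stretch is chr6:145865559-145865670 (minus strand), and the Nfil3 stretch is chr13:52981033-52981062 (minus strand), where the match lies inside an exon annotated by GENCODE.
Tef: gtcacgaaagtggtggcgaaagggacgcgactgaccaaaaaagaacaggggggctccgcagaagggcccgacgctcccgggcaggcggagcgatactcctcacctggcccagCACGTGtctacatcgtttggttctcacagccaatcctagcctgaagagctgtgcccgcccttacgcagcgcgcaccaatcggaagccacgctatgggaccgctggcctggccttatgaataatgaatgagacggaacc
Bhlhe41: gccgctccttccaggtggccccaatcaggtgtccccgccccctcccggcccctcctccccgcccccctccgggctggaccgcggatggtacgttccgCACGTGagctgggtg
Nfil3: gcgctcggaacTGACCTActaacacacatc

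In Nfil3 the capitals are the ROR element read from the other strand. The other start annotated for Tef also had an E-box in this window, and Hlf had a cyclic AMP element. None of the 5 motifs stood in the windows of Dbp, Usp2 and Rora, which says only that these letters are not in those bases. Over 32851 promoters of the same length, an E-box stood in 6.02%, its variant in 3.85%, a D-box in 2.06%, a ROR element in 2.23% and a cyclic AMP element in 1.55%.

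Library totals ran from 4.85 M (mega) reads in KO5w1 to between 8.94 and 10.5 M in the other knock-out libraries, against 10.1 to 10.8 M in wild-type libraries. Levels are given as CPM, reads scaled to library size after TMM scaling. Stab1 had 5 to 16 reads in knock-out libraries and 474 to 594 in wild-type libraries, as labelled. KO5w1 stood apart with 3 Xist reads and 62.6 CPM of the Y-linked gene Ddx3y, against at most 0.462 CPM in any other library, so it read as male and the rest as female. All 7 hepatocyte markers were detected, with a summed level of 71253 to 127797 CPM in knock-out and 143033 to 154054 CPM in wild-type libraries. Most of this sum was Alb, at 46519 to 103809 CPM in knock-out and 117989 to 130363 CPM in wild-type libraries. The ranges of Apoa1, Ttr, Serpina1a, Tat, Cps1 and Fgb overlapped between the genotypes. The 6 sinusoidal endothelial markers summed to 170 to 207 CPM in knock-out and 232 to 281 CPM in wild-type libraries. Those endothelial sums did not overlap, but the ranges of Stab2, Lyve1, Clec4g, Oit3, Kdr and Pecam1 each did. Neutrophil markers summed to 9.25 to 15.8 CPM in knock-out against 4.33 to 9.42 CPM in wild-type libraries. The 5 erythroid markers summed to 70.8 to 195 CPM in knock-out and 66.9 to 69.2 CPM in wild-type libraries. These sums did not overlap, but the lowest in knock-out lay close to wild type. The highest sum, in KO5w1, held 153.9 CPM of Alas2 alone. In KO5w1, Hbb-b1 (10.8 CPM) and Slc4a1 (0.196 CPM) lay below every wild-type library, and Hba-a1 (21.5 CPM) and Car1 (8.80 CPM) above. None of the markers in these lists was called. The part of these differences in the results was not tested, and in bulk tissue fewer cells of a type and less RNA per cell cannot be told apart.

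With all libraries, the log2 range over wild-type libraries exceeded the size of the fitted log2 fold change for every clock output gene. A range and a difference of means are unlike measures, and WT5w3 lay apart from WT5w1 and WT5w2 in each of these genes. Dbp, the founding PAR bZIP activator, was near absence in WT5w1 and WT5w2 and abundant in WT5w3, with the knock-out libraries in between. Dbp had 7.82, 25.2, 12.4, 65.2 and 29.3 CPM in KO5w1 to KO5w5, against 0.472, 0.461 and 146 CPM in WT5w1 to WT5w3. These levels rest on 40 to 616 reads in knock-out libraries, and on 5, 5 and 1453 reads in WT5w1 to WT5w3. Every knock-out library lay above WT5w1 and WT5w2 and below WT5w3. Reads covered 53.7% to 70.3% of the Dbp gene model in knock-out libraries and 11.4%, 9.36% and 70.3% in WT5w1 to WT5w3. The means were 28 ± 22.6 CPM in knock-out and 48.8 ± 83.8 CPM in wild-type liver (SD, n = 5 and 3). The log2 fold change of knock-out over wild type was -0.79 with a standard error (SE) of 1.28 (edgeR adjusted p = 0.776), so the genotypes did not differ beyond the spread among libraries.

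Tef encodes a PAR bZIP activator with the same DNA-binding preference as DBP, and its levels had the same order over the 8 libraries as those of Dbp. Tef had 65.5, 87.9, 73.6, 108.5 and 94.9 CPM in KO5w1 to KO5w5, against 27.3, 21.4 and 266 CPM in WT5w1 to WT5w3. The knock-out libraries again lay inside the wild-type range, in a much narrower band than for Dbp. The log2 fold change was -0.28 (SE 0.67, edgeR adjusted p = 0.851). Hlf, the remaining PAR bZIP gene, had 36.2, 47.6, 38.5, 44.9 and 42.8 CPM in KO5w1 to KO5w5, against 38.4, 38.6 and 84.5 CPM in WT5w1 to WT5w3. Of the 8 libraries, WT5w3 alone stood apart for Hlf, and the other 7 lay close together. Its log2 fold change was -0.36 (SE 0.25, edgeR adjusted p = 0.507).

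Nfil3, the repressor that binds D-boxes, ran the other way. Nfil3 had 21.1, 14.5, 26.2, 4.45 and 19.2 CPM in KO5w1 to KO5w5, against 52.6, 50.04 and 10.1 CPM in WT5w1 to WT5w3. WT5w1 and WT5w2 were the highest libraries, KO5w4 was the lowest, and WT5w3 was the next lowest. KO5w4, lowest for Nfil3, was the highest knock-out library for Dbp. The means were 17.1 ± 8.22 CPM in knock-out and 37.6 ± 23.8 CPM in wild-type liver (SD, n = 5 and 3). The log2 fold change was -1.14 (SE 0.55, edgeR adjusted p = 0.380). The call was missed, and the groups overlapped.

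**Figure D1:**
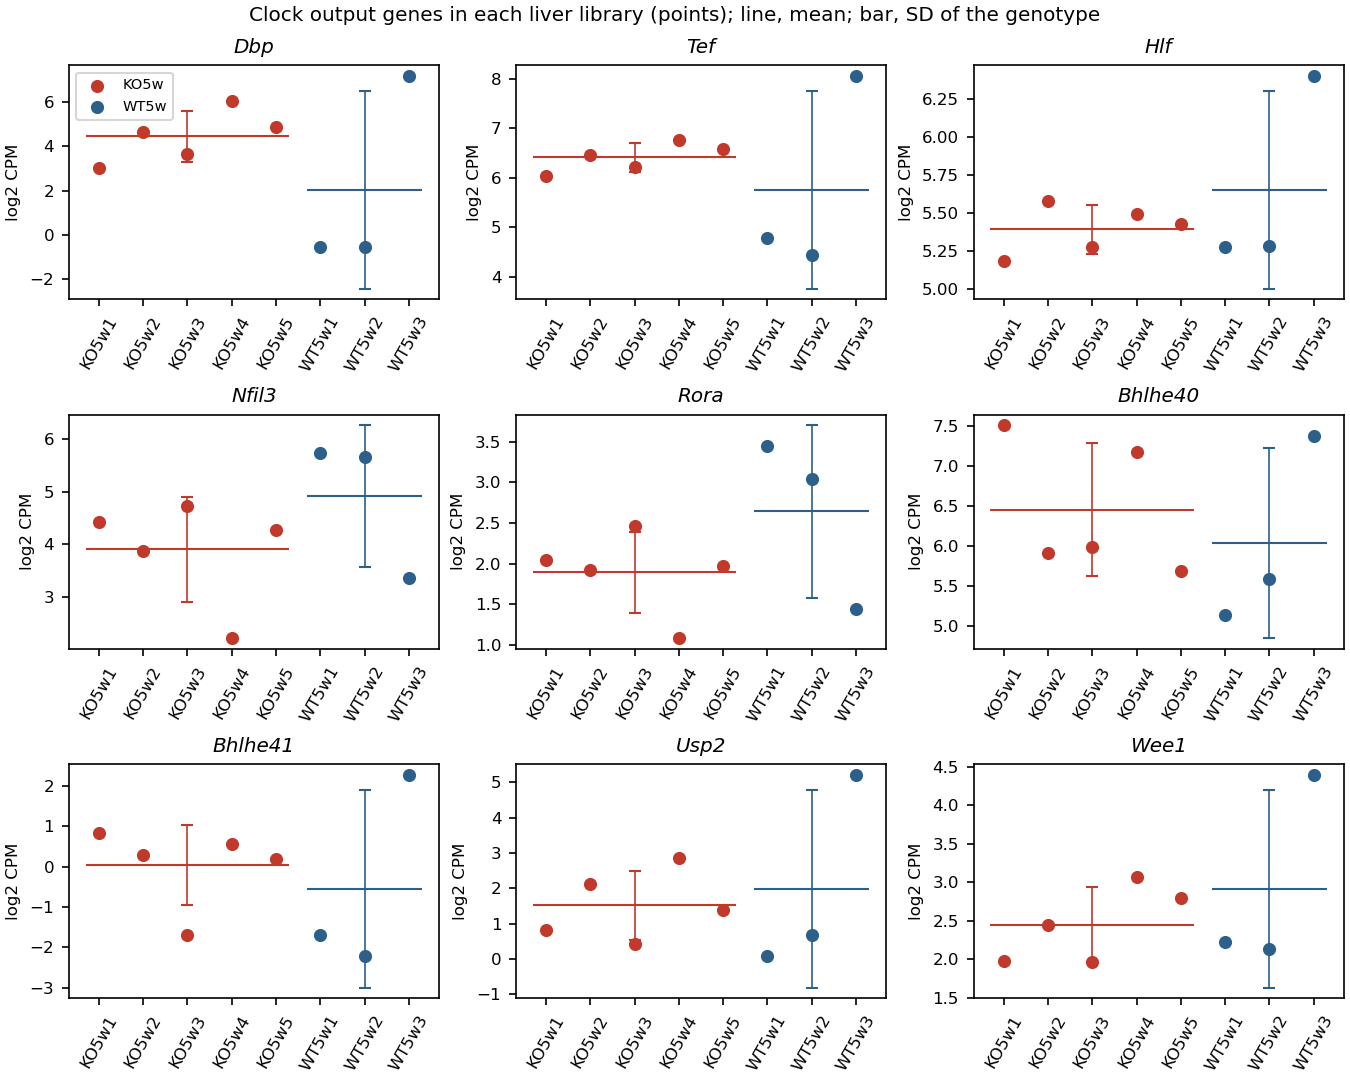
Level of each clock output gene (log2 CPM with a prior count of 2, vertical axes) in the 5 KO5w and 3 WT5w libraries, with the mean (line) and SD (bar) of each genotype. WT5w3 is the highest library for 6 of the 9 genes, and Nfil3 and Rora are highest in WT5w1 and lowest in KO5w4.

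Set per length, the balance of the D-box activators and their repressor differed between libraries by orders of magnitude. In RPKM (reads per kilobase of gene and per megaread of library, as the authors deposited them), the ratio of Dbp to Nfil3 was 0.446, 2.09, 0.571, 17.6 and 1.84 in KO5w1 to KO5w5, against 0.0108, 0.0111 and 17.3 in WT5w1 to WT5w3. KO5w4 and WT5w3 thus had nearly the same ratio, and WT5w1 and WT5w2 had a ratio far below every other library. Dbp made up 17.7% to 53.8% of the summed RPKM of Dbp, Tef and Hlf in knock-out libraries. It made up 2.09%, 2.27% and 52.9% of that sum in WT5w1 to WT5w3. That sum over Nfil3 was 2.42 to 32.8 in knock-out libraries, against 0.517, 0.488 and 32.7 in WT5w1 to WT5w3.

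Rora encodes the receptor RORα, which activates Arntl through ROR elements. Rora had 3.91, 3.57, 5.28, 1.91 and 3.69 CPM in KO5w1 to KO5w5, against 10.7, 8.02 and 2.50 CPM in WT5w1 to WT5w3. Its pattern was that of Nfil3, with WT5w1 and WT5w2 above every knock-out library and WT5w3 inside the knock-out range. The log2 fold change was -0.94 (SE 0.42, unadjusted p = 0.0493, edgeR adjusted p = 0.365). It was the only one of the 9 genes with an unadjusted p below 0.05, which 13.6% of all tested genes had. Without WT5w1 the value was -0.52.

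The DEC genes Bhlhe40 and Bhlhe41 encode bHLH repressors that bind E-boxes and oppose CLOCK and BMAL1. Bhlhe40 had 181, 60.3, 63.2, 144.6 and 51.4 CPM in KO5w1 to KO5w5, against 35.0, 48.0 and 166 CPM in WT5w1 to WT5w3. KO5w1, KO5w4 and WT5w3 were high and the other 5 libraries low, so the order differed from that of Dbp, in which KO5w1 was the lowest knock-out library. Its log2 fold change was 0.27 (SE 0.56, edgeR adjusted p = 0.833). Bhlhe41 was scarce, with 8, 9, 1, 12 and 8 reads in KO5w1 to KO5w5, against 1, 0 and 46 reads in WT5w1 to WT5w3. A floor of 3 reads corresponds to 0.619 CPM in KO5w1 and to 0.278 to 0.336 CPM in the other libraries, so its level in KO5w3, WT5w1 and WT5w2 was not distinguishable from 0 at this depth. WT5w3 held the most reads, and the log2 fold change was -0.74 (SE 1.08, edgeR adjusted p = 0.749).

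Usp2 encodes a deubiquitinating enzyme whose liver transcript is rhythmic, and Wee1 encodes the kinase that holds CDK1 inactive before mitosis. Usp2 had 1.56, 4.12, 1.13, 6.99 and 2.42 CPM in KO5w1 to KO5w5, against 0.850, 1.38 and 36.8 CPM in WT5w1 to WT5w3. Its 367 reads in WT5w3 compare with 9 and 15 reads in WT5w1 and WT5w2 and with 8 to 66 reads in knock-out libraries. WT5w3 stood alone, and KO5w4 came next. Its log2 fold change, -1.96 (SE 1.01, edgeR adjusted p = 0.397), was the largest in size among the 9 genes. Wee1 had 3.72, 5.24, 3.68, 8.15 and 6.69 CPM in KO5w1 to KO5w5, against 4.44, 4.15 and 20.8 CPM in WT5w1 to WT5w3. WT5w3 was again the highest and KO5w4 the next, while the lowest values were those of KO5w3 and KO5w1. Its log2 fold change was -0.82 (SE 0.52, edgeR adjusted p = 0.469).

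None of the 9 genes was called between knock-out and wild-type liver at an edgeR adjusted p below 0.05, beside 0.227% of all tested genes, and 8 of the 9 log2 fold changes were negative, with a median of -0.79. Over all tested genes 50.9% of the log2 fold changes were negative, and their median was -0.01. At an unadjusted p below 0.05 the count was 1 of 9. DESeq2 gave no p for Tef, Usp2 and Bhlhe41 and called 0 of the other 6, beside 0.769% of the genes it tested. The groups overlapped for all 9 genes, while they did not overlap for 6.65% of all tested genes. In 4 of the 9 genes, Dbp, Tef, Bhlhe41 and Usp2, all 5 knock-out libraries lay inside the wild-type range, as they did in 8.73% of all tested genes. WT5w3 was the highest of the 8 libraries in 6 of the 9 genes, and in 12.2% of all tested genes.

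The range over the 3 wild-type libraries, in log2 CPM (prior count 2), was 7.75 for Dbp, rank 1 among the 12338 tested genes. It was 5.12 for Usp2 (rank 8), 4.48 for Bhlhe41 (rank 17) and 3.62 for Tef (rank 25). Nfil3 (2.35), Wee1 (2.27), Bhlhe40 (2.24) and Rora (2.001) also exceeded 98% of tested genes, and Hlf (1.13) exceeded 90.8%. The median over all tested genes was 0.45. Among knock-out libraries the range was 3.03 for Dbp, wider than in 98.6% of tested genes, but 0.73 for Tef and 0.39 for Hlf, wider than in 51.0% and 16.7%. The median of the 9 genes was 2.35 over wild-type and 1.82 over knock-out libraries, while over all tested genes it was smaller over the 3 wild-type libraries (0.45) than over the 5 knock-out libraries (0.71).

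**Figure D2:**
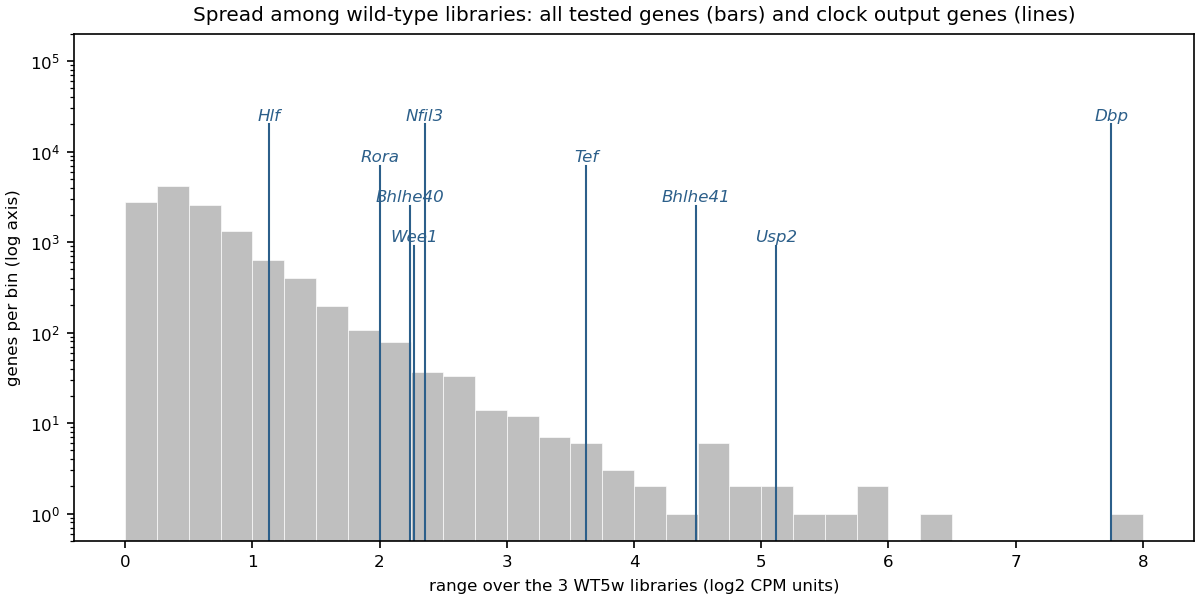
Range of each tested gene over the 3 WT5w libraries (horizontal axis, log2 CPM units), as the number of genes per bin on a log axis (bars), with the 9 clock output genes as lines. Dbp lies at 7.75, beyond every other tested gene, and Hlf, at 1.13, is the least spread of the 9.

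A single wild-type library set the direction of most of these fold changes. Without WT5w3, the log2 fold change was 5.88 for Dbp (SE 1.07, edgeR adjusted p = 0.0483) and 1.82 for Tef (SE 0.23, edgeR adjusted p = 0.0117). In that fit 2 of the 9 genes were called, both higher in knock-out liver, beside 0.184% of tested genes called higher and 0.745% called in either direction. Bhlhe41 (3.95), Usp2 (1.55), Wee1 (0.37) and Hlf (0.13) also had positive values there, with no call, and Bhlhe40 was at 1.27 (adjusted p = 0.202). Nfil3 (-1.59, adjusted p = 0.132) and Rora (-1.34, adjusted p = 0.0927) had larger negative values and were not called either. Without WT5w1 or WT5w2 the values for Dbp were -1.37 and -1.38. The fit without WT5w3 sets the 5 knock-out libraries against the remaining wild-type pair, WT5w1 and WT5w2. In read counts that pair differed less than any other pair of libraries, and Dbp had 5 reads in each of them.

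**Figure D3:**
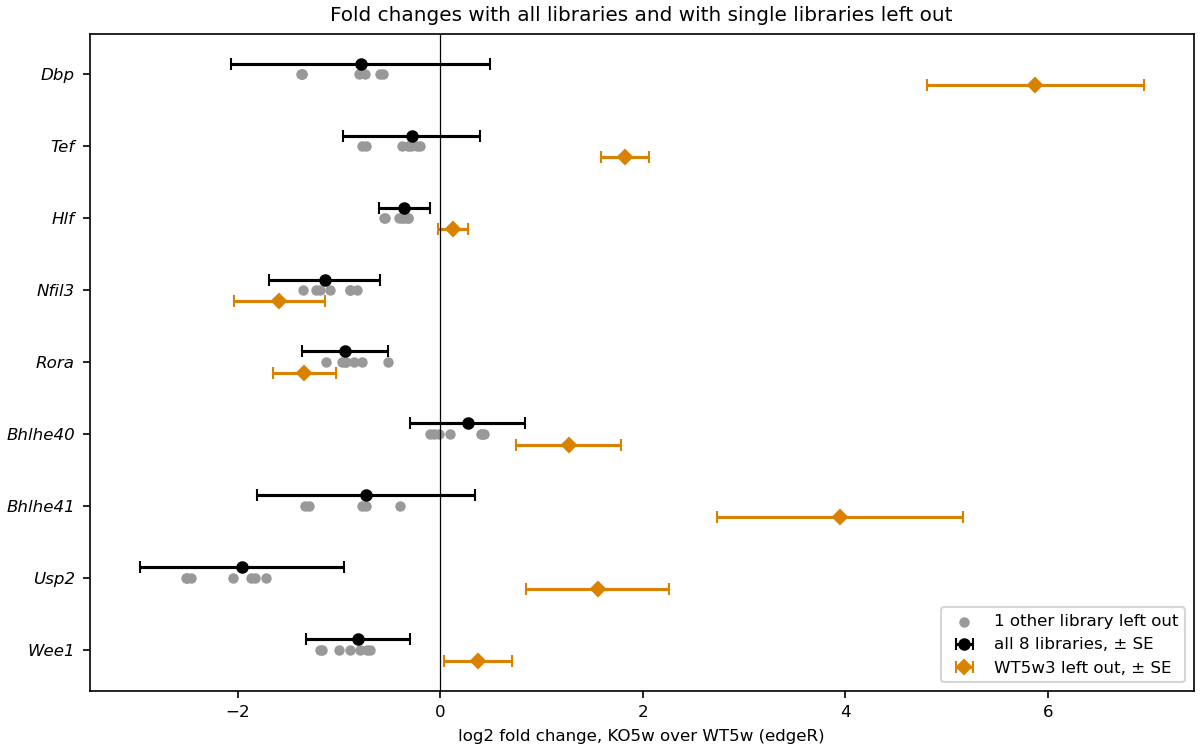
Fitted log2 fold change, KO5w over WT5w (horizontal axis), of each clock output gene with all 8 libraries (black, ± SE), with WT5w3 left out (orange, ± SE) and with 1 other library left out (grey). The sign of 6 genes turns without WT5w3, among them Dbp at -0.79 with all libraries and 5.88 without it.

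Evenness of coverage also differed between libraries. The median percent of gene length covered, over genes with 50 to 150 reads, was 62.9% to 67.6% in knock-out libraries, against 69.8%, 69.2% and 65.5% in WT5w1 to WT5w3. With this measure as a covariate, Usp2 was called lower (log2 fold change -3.95, SE 0.58, edgeR adjusted p = 0.0393), as the only one of the 9 genes, beside 0.154% of tested genes called. Its level was high in WT5w3 alone (36.8 CPM), and without WT5w3 and this covariate its log2 fold change was 1.55. Nfil3 (0.28) and Rora (0.14) then had positive values. The part of coverage in these results was not tested.

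The core clock loop varied over the same libraries. Its 12 tested genes had a median log2 fold change of -0.93 and a median wild-type range of 2.64, and none was called. Arntl, which encodes BMAL1, had 16.8, 8.69, 12.9, 3.71 and 8.54 CPM in KO5w1 to KO5w5, against 39.4, 37.0 and 1.40 CPM in WT5w1 to WT5w3. Per3, a period gene driven by E-boxes and D-boxes, had 6.85, 12.1, 6.98, 19.5 and 12.5 CPM in KO5w1 to KO5w5, against 2.55, 1.47 and 92.8 CPM in WT5w1 to WT5w3. Per3 had the order of Dbp over the 8 libraries, and Arntl nearly its reverse. Npas2, a paralog of Clock, was at 1.82 ± 1.33 CPM in knock-out and 9.64 ± 8.18 CPM in wild-type liver (-2.51 on the log2 scale, SE 0.83, edgeR adjusted p = 0.332). Cry1, a repressor of the loop, was at 6.86 ± 0.747 CPM in knock-out and 14.4 ± 6.70 CPM in wild-type liver (-1.06, SE 0.29, adjusted p = 0.293).

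**Figure D4:**
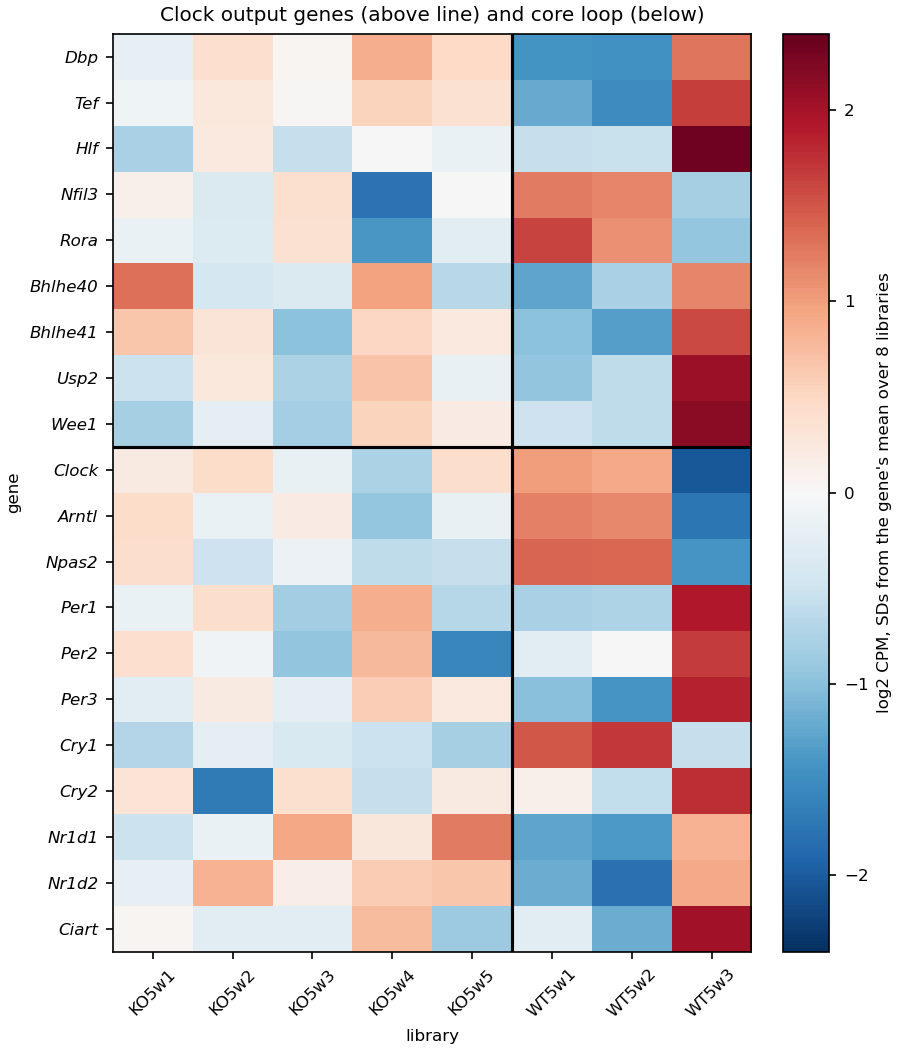
Levels of the 9 clock output genes (above the black line) and 11 core loop genes (below it) in the KO5w libraries (left) and WT5w libraries (right), each as log2 CPM in SDs from that gene's mean over the 8 libraries. Dbp, Tef and Per3 are lowest in WT5w1 and WT5w2 and highest in WT5w3, where Arntl is lowest.

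The likeness of other patterns to that of Dbp was measured by Pearson's r of log2 CPM over the 8 libraries, as a description, since all values come from the same libraries and a few extreme ones weigh most. Among the clock output genes r was 0.97 for Tef (Spearman's rho 1), 0.84 for Bhlhe41, 0.80 for Usp2, 0.71 for Wee1, 0.67 for Hlf and 0.65 for Bhlhe40, and it was -0.94 for Rora and -0.89 for Nfil3. Without WT5w1 and WT5w2, the libraries farthest from the median of Dbp, r over the other 6 was 0.93 for Tef, 0.94 for Usp2, 0.96 for Wee1 and 0.87 for Hlf. It was 0.64 for Bhlhe41, -0.79 for Rora and -0.73 for Nfil3. For Bhlhe40 it was only 0.26, so that the likeness of Bhlhe40 to Dbp rested on WT5w1 and WT5w2. The other 6 libraries still held WT5w3, the highest library for Dbp, Tef, Hlf, Bhlhe41, Usp2 and Wee1, so those values still lean on it. Of the core loop, r was 0.95 for Per3, -0.96 for Arntl and -0.99 for Npas2.

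Among 9199 named genes with a mean of at least 5 CPM, those most like Dbp after Tef were Glrx5, Amdhd2, Erlec1 and Acaa1a, with r of 0.97 each. Glrx5, a mitochondrial glutaredoxin of iron-sulfur cluster assembly, had 67.7, 91.0, 80.0, 99.1 and 88.8 CPM in KO5w1 to KO5w5, against 57.5, 57.6 and 99.0 CPM in WT5w1 to WT5w3. Its order was close to that of Dbp in a far smaller range. Most opposite to Dbp were Chka, Tjp3, Celsr1, Tubb2a and Edem1, with r of -0.98 to -0.97. Chka, choline kinase alpha, had 53.0, 32.4, 49.3, 27.3 and 30.1 CPM in KO5w1 to KO5w5, against 85.2, 111.7 and 20.8 CPM in WT5w1 to WT5w3. For Nfil3 the nearest were Creb3l2, Map3k7, Arfgef1, Taf1 and A1cf (r of 0.96 to 0.98), and for Bhlhe41 they were Stbd1, Foxa1, Ptpla, Apbb3 and Rassf1 (0.93 to 0.96).

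Genes known to be driven by the PAR bZIP factors, largely of detoxification and fatty acid handling, gave no call in 12 tested. Their median log2 fold change was -0.29, and WT5w3 was the highest library for 7 of the 12, against 12.2% of all tested genes. KO5w1, which read as male, was the lowest for Nr1i3, Por, Cyp2a4, Cyp2a5, Cyp2b10, Ppara, Cyp4a10 and Cyp4a14. It was the lowest in 16.3% of all tested genes. Alas1, Cyp7a1, Ces2a and Fgf21 were lowest in other libraries. Cyp4a14 had 30.3 CPM in KO5w1 and 833 to 1637 CPM in the other knock-out libraries. Fgf21, a fasting hormone repressed by NFIL3, was at 4.71 ± 3.83 CPM in knock-out and 13.1 ± 19.4 CPM in wild-type liver (knock-out over wild type, log2, -1.43, SE 0.90, edgeR adjusted p = 0.469). Ppara was at 219 ± 56.9 against 270.0 ± 86.4 CPM (-0.30, SE 0.25, adjusted p = 0.571). Cyp2a4 was at 179 ± 105.5 against 412 ± 362 CPM (-1.20, SE 1.05, adjusted p = 0.597). It had 0 CPM in KO5w1, the library that read as male, and 156 to 826 CPM in every other library. The part of sex in this was not tested. Only uniquely mapped reads were counted, which limits the values of Cyp2a4 and the near-identical Cyp2a5. The ROR and REV-ERB target list, which holds Nfil3 itself and shares Cry1 and Npas2, among others, with the core loop, had no call among 12 genes (median -0.42), and WT5w3 was the lowest library for 6 of them, against 11.1% of all tested genes.

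Other rhythmic liver genes had no call among 12 tested (median -0.39). Lonrf3, a RING finger gene, was at 4.64 ± 1.15 CPM in knock-out and 11.8 ± 7.57 CPM in wild-type liver (knock-out over wild type, log2, -1.36, SE 0.44, edgeR adjusted p = 0.331). Lpin1, a phosphatidate phosphatase, was at 50.7 ± 7.22 against 76.3 ± 33.8 CPM (-0.59, SE 0.24, adjusted p = 0.346), and Nampt, the rate-limiting enzyme of NAD salvage, at 67.2 ± 13.6 against 97.2 ± 52.0 CPM (-0.53, SE 0.29, adjusted p = 0.417). Without WT5w3, Npas2, Cry1 and Lonrf3 were called lower in knock-out liver and Nr1d2, a REV-ERB gene, higher.

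The partners of WEE1 at the entry to mitosis had 9 tested genes, none called, all with negative log2 fold changes and a median of -0.98. Of all tested genes 50.9% had negative values. WT5w1 or WT5w2 was the highest library for 8 of the 9, and for 3329 of the 12338 tested genes. Cdk1, the kinase WEE1 inhibits, was at 2.67 ± 0.482 CPM in knock-out and 5.48 ± 2.25 CPM in wild-type liver (-1.04, SE 0.30, edgeR adjusted p = 0.301). Ccna2 (-1.05, SE 0.36, adjusted p = 0.332) and Plk1 (-1.50, SE 0.53, adjusted p = 0.333) followed it. Cdk1 had 7.08, 6.45 and 2.90 CPM in WT5w1 to WT5w3, and WT5w3 was the wild-type library with the most Wee1. The knock-out libraries had no such opposite order. KO5w4 had the most of both among them (Cdk1 3.18 CPM, Wee1 8.15 CPM), and KO5w3 the least of both (1.89 and 3.68 CPM). Without WT5w3, Cdk1 and Ccna2 were called lower. Proposed substrates and relatives of USP2 gave no call among 7 genes (median -0.18), with Usp8 at -0.33 (SE 0.16, adjusted p = 0.380), Ccnd1 at -0.77 (SE 0.42, adjusted p = 0.419) and Fasn at -0.79 (SE 0.53, adjusted p = 0.488).

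Clock kinases and ubiquitin ligases, which set the stability of PER and CRY proteins, stayed nearer to the bulk of genes, with a median wild-type range of 0.36 over 8 genes and no call. Csnk1e, which encodes casein kinase 1 epsilon, stood at -0.60 on the log2 scale, knock-out over wild type (SE 0.28, edgeR adjusted p = 0.373), and Gsk3b at -0.35 (SE 0.21, adjusted p = 0.452). Other leucine zipper and E-box factors had a median of -0.03 over 12 genes and no call. Usf1, an E-box factor, was at 33.9 ± 3.35 CPM in knock-out and 23.3 ± 1.08 CPM in wild-type liver with no overlap (0.54, SE 0.13, edgeR adjusted p = 0.249), and DESeq2 called it (adjusted p = 0.0351). Myc (-1.82, SE 0.83, adjusted p = 0.367) and Cebpa (0.37, SE 0.24, adjusted p = 0.470) were not called. Nuclear receptors related to Rora had a median of 0.12 over 9 genes, with Hnf4a at -0.28 (SE 0.17, adjusted p = 0.448) and Esrra at 0.32 (SE 0.22, adjusted p = 0.503).

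By RPKM, which allows levels of different genes to be set side by side, the order in knock-out liver was Bhlhe40 (32.7 ± 20.3 RPKM), Tef (20.1 ± 3.66), Dbp (16.6 ± 13.5), Nfil3 (8.51 ± 4.19), Hlf (7.41 ± 0.635), Rora (2.22 ± 0.747), Wee1 (1.60 ± 0.547), Usp2 (0.832 ± 0.611) and Bhlhe41 (0.160 ± 0.0941). Neighbours in that order overlapped over the 5 libraries, except for Rora, whose 1.15 to 3.22 RPKM lay below the 6.74 to 8.16 RPKM of Hlf, and for Bhlhe41, whose highest value of 0.270 RPKM lay under the lowest of Usp2, 0.294 RPKM. In wild-type liver Dbp came to the top with 28.7 ± 49.2 RPKM through WT5w3 alone (85.5 RPKM), while in WT5w1 and WT5w2 it was at 0.279 and 0.276 RPKM, under Rora at 6.40 and 4.87 RPKM.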

How the data were processed

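Liver messenger RNA was measured by sequencing in 5 KO5w and 3 WT5w libraries. Per the labels' protocols, a NucleoSpin kit gave the RNA and BGI prepared Illumina libraries. For aligner, counter, build, annotation and strandedness: not given in the sources used here. Of processed data, the authors deposited 1 table of 19464 rows with, per the file headers, a count of uniquely mapped reads, the percent of gene length covered and RPKM for each library. RPKM recomputed from counts, header totals and lengths equalled the deposited RPKM within rounding. A dash was read as 0, and reads of the 113 identifiers on several rows were summed, which left 19348 genes.

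Counts were tested in R 4.3.3 with edgeR 4.0.16 (filterByExpr, TMM, quasi-likelihood F test, no covariate) over 12338 genes, with Benjamini-Hochberg adjustment over all of them and a call at an adjusted p below 0.05. The SE is the size of the log2 fold change divided by the square root of F. The common biological coefficient of variation was 24.8%. DESeq2 1.42.0 was an alternative. The edgeR fit was tried on simulated counts with the same spread for every gene. It called 49 of 98 genes changed 2-fold, 100 of 100 changed 4-fold and 3 of 12194 unchanged genes. That simulation did not cover genes as widely spread as Dbp. Since separate animals are not stated, p-values reflect library-to-library spread only, possibly technical, and read floors cover counting error only. Every pair of libraries differed by more than sampling noise.

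The 9 genes and the 9 lists of related genes (85 further genes) were chosen with earlier results of these data known, so no count over a list is independent support. Of 153 list and marker entries, 151 matched by symbol and 2 through RefSeq synonyms. In each list, called genes or the 3 with the smallest p are named. Some genes under this rule are not reported here. For Dbp, Nfil3 and Bhlhe41 the 5 genes most alike are named, and for Dbp the 5 most opposite, leaving out predicted genes. The other genes with values (Arntl, Per3, Nr1d2) were chosen after their values were seen. Exons are those of GENCODE M21. Figures were drawn with matplotlib 3.10.9.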

Additional observations from a re-analysis of the deposited data

Results flagged for a closer look

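Among 51 genes checked over the 5 knock-out libraries, 6 had a library far from the others (a gap over 0.71 of the range, which chance gives in about 5% of groups), and none of them was a clock output gene. KO5w1 was far above the rest for Myc (9.19 CPM, next 3.21), Gsk3b (37.9 CPM, next 26.8) and Fasn (1231 CPM, next 526.5). KO5w3 was far above for Fgf21 (11.4 CPM, next 4.35), KO5w5 far below for Lpin1 (38.2 CPM, next 51.4) and KO5w4 far below for Taf1 (14.6 CPM, next 20.3). Taf1 was checked only because its pattern was like that of Nfil3, which was itself lowest in KO5w4. The chance rate therefore does not apply to Taf1. The 3 wild-type libraries were not checked in this way.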

How the results depend on the processing

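Of the 9 fold changes, all kept their sign and stayed uncalled with relative log expression or upper-quartile factors, without the low-count filter and with the gene length trend removed. With DESeq2 all kept their sign, 6 stayed uncalled, and Tef, Usp2 and Bhlhe41 had no p. With 1 library left out, the fold change ran from -1.38 to 5.88 for Dbp, -0.77 to 1.82 for Tef, -0.56 to 0.13 for Hlf, -1.33 to 3.95 for Bhlhe41, -2.52 to 1.55 for Usp2, -1.19 to 0.37 for Wee1, -0.10 to 1.27 for Bhlhe40, -1.59 to -0.82 for Nfil3 and -1.34 to -0.52 for Rora, with 0 to 2 of the 9 genes called, 0 to 6 genes of the other lists and 13 to 114 of all genes (28 with all libraries; 114 without KO5w1, 93 without WT5w3, 15 without WT5w1 and 13 without WT5w2). Bhlhe41 fell below the filter without KO5w1 or KO5w4. For Bhlhe40 the sign also turned under DESeq2 without KO5w1 (-0.0596). Equal replicate numbers did not pair the libraries (r of deviations 0.12, -0.15 and -0.15). With the replicate block, Dbp was at 1.86, Tef at 0.57 and Bhlhe41 at 0.0038, none called, and 8 genes were called in all. The coverage covariate turned Nfil3 (0.28) and Rora (0.14) and called 1 of the 9 genes and 1 list gene, Nampt. DESeq2 called 134 genes and 1 list gene, and without KO5w1 1057 genes and 5 list genes. With a prior count of 0.5, 18 of 20 likeness entries recurred. The causes were not tested. Depth limits the values that rest on few reads, as those of Bhlhe41, and of Dbp in WT5w1 and WT5w2.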
